A study of Rattus norvegicus with 23 samples.

Results

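Hcn2, Hcn3 and Hcn4 are 3 genes of the hyperpolarization-activated, cyclic nucleotide-gated (HCN) channels, and they were followed here across 6 regions of the rat heart and great vessels. They are 3 of the 16544 genes that could be named on the array, and were found through the RefSeq accession that the scanner output gives each probe. Each of them has 1 named probe, which hybridizes with NM_053684 for Hcn2, NM_053685 for Hcn3 and NM_021658 for Hcn4. These are 3 of 45440 probes, of which 24393 could not be named in this way and were not searched for further HCN probes. All 3 passed the filter on low values and were tested.

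RNA of male Wistar rats was hybridized to 23 single-color Agilent arrays. The regions were the left atrium next to the pulmonary vein (LA, n = 4), a mass of the left ventricle (LV, n = 4), the right ventricular free wall (RV, n = 3), the sinoatrial node region (SA, n = 4), the pulmonary vein (PV, n = 4) and the pulmonary artery (PA, n = 4). The tissue came from 12 rats of 8 to 11 weeks, killed under pentobarbital with heparin and otherwise untreated, and the SA tissue of 2 rats was joined into 1 sample. The 7 arrays of LV and RV together are called V, and the sources used here do not tie the other regions to single rats. Because the left ventricle of a rat gave 3 samples, LV arrays, and with them those of V, may share a rat. The p-values describe the spread between these samples. Every sample is a piece of tissue with many cell types, and in such bulk RNA fewer cells of a type and less RNA per cell cannot be told apart.

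HCN channels open when the membrane becomes negative after an action potential and let a mixed inward current of sodium and potassium flow, the funny current of pacemaker cells. Each channel is made of 4 subunits, and cyclic AMP binding to their C-terminal part eases opening, which is a route by which sympathetic and vagal input sets the heart rate. Hcn4 encodes the subunit best known for the sinus node, Hcn2 encodes a subunit of heart and brain that opens fast and responds strongly to cyclic AMP, and Hcn3 encodes a subunit that responds little to cyclic AMP.

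All arrays were scaled by the authors to nearly the same 90th percentile, and the median probe signal of an array lay between 102.7 and 136.3. The scanner software rated 58.6% to 79.8% of the probes as well above background depending on the array, and the lowest such signal was 13.5 to 49.6. The share was 76.9% ± 1.99 (SD, n = 11) for arrays in the first row of their slide and 63.0% ± 3.56 (SD, n = 12) for those in the second row, where 3 of 4 SA and 3 of 4 PV arrays but 1 of 4 LA arrays lay. Hcn3 and Hcn4 were well above background on all 23 arrays and Hcn2 on 21, the exceptions being LA replicate 2 and PA replicate 4. The tissue labels were checked against marker lists. The summed signal of 5 atrial myocyte genes was 1286600 to 1758140 in LA, SA and PV, 237646 to 423208 in LV and RV and 3315 to 38999 in PA. The 5 ventricular myocyte genes summed to 1111390 to 1464600 in LV and RV and to 326963 to 477300 in LA, SA and PV. Bright genes that differ little between chambers weigh heavily in both sums. Myl4 of the atrial list had geometric means of 218628 in LA and 229780 in V, and Myh7 of the ventricular list 311949 and 389519. In PA the ventricular genes summed to 5216 to 26435, so that PA held little of either kind of cardiac muscle. The 6 smooth muscle genes summed to 694059 to 831515 in PA against 40829 to 142620 elsewhere. Shox2, a transcription factor of the sinus node, had signals of 2520 to 2993 in SA, 1925 to 2293 in PV and 182 to 293 in LA, and did not reach that mark on any of the 7 arrays of LV and RV.

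Hcn2 and Hcn4 differed among the 6 regions and Hcn3 did not pass the test. The moderated F-test of limma gave an adjusted p of 5.65e-08 for Hcn4, 3.52e-07 for Hcn2 and 0.314 for Hcn3 (all p adjusted by Benjamini-Hochberg over 16089 genes), and 64.4% of all genes tested passed it. Hcn4 had its highest mean in SA and its lowest in PA. Hcn2 had its highest means in LV and RV and its lowest in LA.

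**Figure D1:**
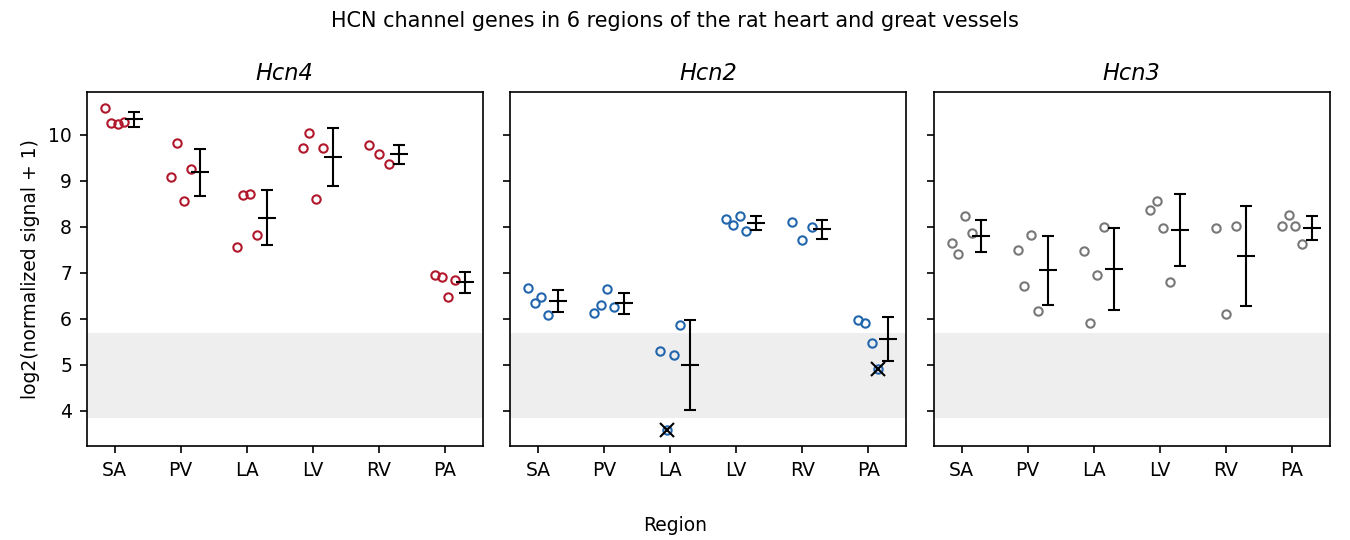
Log2 normalized signal (y axis) of Hcn4, Hcn2 and Hcn3 on each array (circles, in replicate order) by region (x axis), with the mean and SD of the region beside them. The gray band spans the lowest signals well above background on the 23 arrays (log2 3.86 to 5.66) and crosses mark the 2 arrays where Hcn2 was not well above background; all 4 SA arrays are the top ones for Hcn4 and all 7 LV and RV arrays the top ones for Hcn2.

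Hcn4 was highest in the sinoatrial node. In the paper, Hcn4 on these same rat arrays also served as the check of the node dissection. Its height in SA is therefore not independent of that check. The normalized Hcn4 signals in SA replicates 1 to 4 were 1531, 1231, 1196 and 1236. In LV they were 834, 1058, 387 and 844, and in RV 877, 764 and 656. In PV they were 545, 902, 379 and 615, in LA 187, 415, 421 and 225, and in PA 123, 120, 87.5 and 113. The lowest SA array lay above the highest array of every other region, and the 4 PA arrays lay below every array of the other regions. PV and LV spread widely, and LV replicate 3 and PV replicate 3 lay within the range of LA. On the log2 scale of signal + 1 the means were 10.34 ± 0.16 (SD, n = 4) in SA, 9.57 ± 0.21 (n = 3) in RV, 9.52 ± 0.63 (n = 4) in LV, 9.19 ± 0.52 (n = 4) in PV, 8.20 ± 0.60 (n = 4) in LA and 6.79 ± 0.22 (n = 4) in PA.

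Hcn4 was 4.40-fold higher in SA than in LA (log2 difference 2.14, SE 0.31, limma adjusted p = 9.86e-05), where 15.3% of all genes were called in either direction and 7.03% were called as higher in SA. The series holds no right atrium array, and SA was cut at the border of the right atrium. In every comparison of SA with LA, node against atrium and right against left cannot be told apart. Compared with V, Hcn4 in SA was 1.73-fold higher (log2 0.79, SE 0.27, limma adjusted p = 0.0349; 28.1% of genes called). Compared with PV it was 2.22-fold higher (log2 1.15, SE 0.31, limma adjusted p = 0.0429), in a comparison with only 3.49% of genes called and 0.783% called as higher in SA. The SA arrays did not overlap with those of LA, V or PV, as was the case for 21.6%, 21.1% and 11.2% of all genes. The differences from V and PV were close to the threshold. Without single arrays the adjusted p for SA versus PV was 0.0213 to 0.126 and the call was lost in 14 of the 23 cases, namely without any of the SA or RV arrays, LV replicates 1 and 4, PV replicates 1, 3 and 4, and PA replicates 2 and 4, while the log2 difference stayed between 0.94 and 1.36. For SA versus V the adjusted p was 0.0208 to 0.102, above 0.05 without any of the SA arrays, LV replicate 3 or RV replicates 2 and 3, with log2 differences of 0.64 to 0.88, and it was 0.0869 with the slide and 0.0619 with the row of the slide as a block.

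Below SA, the neighbors in the order of Hcn4 were harder to separate. LV and RV overlapped, as for all but 10.3% of genes, and differed by a log2 of -0.05 (95% interval -0.74 to 0.64, limma adjusted p = 0.982; 0.522% of genes called). PV minus V was -0.36 on the log2 scale (95% interval -0.93 to 0.21, limma adjusted p = 0.331; 33.9% of genes called). PV was higher than LA by 0.99 (SE 0.31, 1.98-fold, limma adjusted p = 0.0365; 13.5% of genes called), but their arrays overlapped, and the adjusted p was 0.0605 with the slide and 0.0819 with the row as a block. The call was lost without LA replicate 1 or 4 or PV replicate 1, 2 or 4, with log2 differences between 0.77 and 1.19 and adjusted p up to 0.128 when single arrays were left out. LA was 2.54-fold lower than V (log2 -1.35, SE 0.27, limma adjusted p = 0.000585; 35.4% of genes called), with 1 LV array inside the range of LA.

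PA had the least Hcn4, in the region with the least signal of atrial and ventricular myocyte genes. The gene was 11.7-fold lower in PA than in SA (log2 -3.54, SE 0.31, limma adjusted p = 4.5e-09; 53.6% of genes called), 6.73-fold lower than in V (adjusted p = 2.62e-08; 58.4% called), 5.25-fold lower than in PV (adjusted p = 1.36e-06; 53.4% called) and 2.65-fold lower than in LA (adjusted p = 0.000593; 52.1% called). With normexp background correction, here with an offset of 50 added to all signals, the log2 differences from SA, V, PV and LA were -2.75, -2.04, -1.77 and -0.90, all still called. None of these comparisons overlapped, as for 50.4%, 46.2%, 48.3% and 47.9% of all genes. The part of the lower cardiac muscle content in these differences was not tested.

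Hcn2 was highest in the ventricles. Its signals in LV replicates 1 to 4 were 285, 263, 301 and 238, and in RV 275, 209 and 256. In SA they were 100, 79.9, 88.3 and 66.9, and in PV 69.1, 77.8, 99.2 and 75.4. In PA they were 61.5, 58.6, 43.4 and 29.0, and in LA 38.5, 11, 36.2 and 57.6, where the values 11 and 29.0 were not well above background. The 7 ventricular arrays lay above all 16 others, SA and PV covered nearly the same range, and LA and PA overlapped at the bottom. The log2 means were 8.09 ± 0.15 (SD, n = 4) in LV, 7.94 ± 0.20 (n = 3) in RV, 6.39 ± 0.24 (n = 4) in SA, 6.33 ± 0.22 (n = 4) in PV, 5.56 ± 0.49 (n = 4) in PA and 4.99 ± 0.98 (n = 4) in LA.

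The LA signal of Hcn2 was 8.11-fold lower than that of V (log2 -3.02, SE 0.30, limma adjusted p = 1.48e-07). SA was 3.08-fold lower than V (log2 -1.62, SE 0.30, limma adjusted p = 0.000301), PV 3.21-fold lower (log2 -1.68, SE 0.30, limma adjusted p = 0.000179) and PA 5.48-fold lower (log2 -2.45, SE 0.30, limma adjusted p = 4.67e-07). In none of the 4 comparisons did the arrays overlap, against 25.0%, 21.1%, 22.4% and 46.2% of all genes. LV and RV differed by 0.14 (95% interval -0.61 to 0.90, limma adjusted p = 0.950). Hcn2 was also higher in SA than in LA, 2.63-fold (log2 1.40, SE 0.33, limma adjusted p = 0.00738), and in PV than in LA, 2.53-fold (log2 1.34, SE 0.33, limma adjusted p = 0.0106), with no overlap in either (17.6% of all genes for PV and LA).

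The size of these differences depended on how low signals were treated. Without LA replicate 2, the log2 differences were -2.55 for LA and V, 0.93 for SA and LA and 0.87 for PV and LA. With normexp, they were -1.74, 0.80 and 0.65, and those of SA, PV and PA from V were -0.94, -1.09 and -1.36, all still called. With LA fitted against SA alone or PV alone, the adjusted p was 0.0895 and 0.121.

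Between SA and PV, Hcn2 differed by 0.06 (95% interval -0.64 to 0.76, limma adjusted p = 0.961). PA minus SA was -0.83 (SE 0.33, limma adjusted p = 0.0428; -0.42 with normexp), a call that was lost without PA replicate 3 or 4 or SA replicate 1, 2 or 3 (adjusted p up to 0.151, log2 differences -0.97 to -0.61). PA minus PV was -0.77 (limma adjusted p = 0.0589) with no overlap (48.3% of genes), and was called with the slide or row block and in other alternatives given below. PA and LA differed by 0.57 (95% interval -0.13 to 1.27, limma adjusted p = 0.173).

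**Figure D2:**
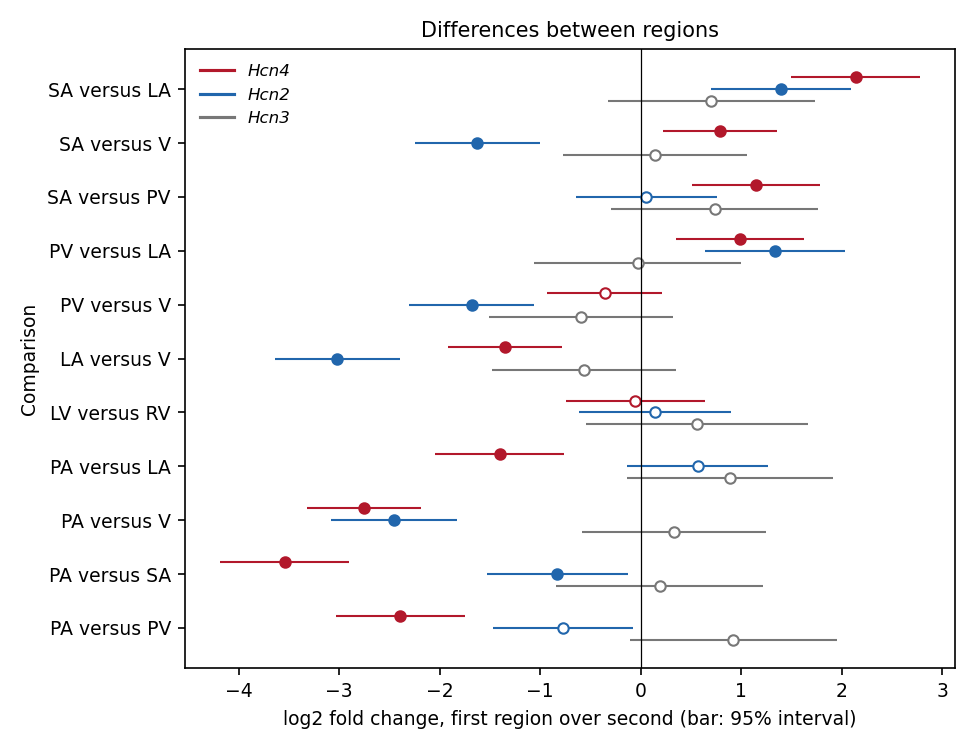
Log2 fold change (x axis) of Hcn4, Hcn2 and Hcn3 in 11 comparisons of regions (y axis), first region over second, from the limma fit of 23 arrays. Bars are 95% intervals, filled circles passed an adjusted p of 0.05 and open circles did not; Hcn4 has filled circles above 0 for SA against LA, V and PV, Hcn2 has one below 0 for SA against V, and Hcn3 has none.

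Hcn3 varied more within regions than between them. Its signals were 178, 59.0, 122 and 256 in LA, 329, 379, 250 and 111 in LV, 251, 68.1 and 257 in RV, 201, 169, 300 and 231 in SA, 179, 104, 227 and 71.3 in PV, and 258, 304, 258 and 197 in PA. The log2 means were 7.98 ± 0.26 (SD, n = 4) in PA, 7.93 ± 0.79 (n = 4) in LV, 7.79 ± 0.35 (n = 4) in SA, 7.37 ± 1.09 (n = 3) in RV, 7.08 ± 0.90 (n = 4) in LA and 7.05 ± 0.75 (n = 4) in PV. Every region overlapped with every other in the 11 comparisons made, none of which passed the test. The lowest unadjusted p was 0.0749, for PA over PV (log2 0.92, 95% interval -0.10 to 1.95, limma adjusted p = 0.124), and for SA and LA the difference was 0.70 (95% interval -0.32 to 1.73, limma adjusted p = 0.398). For SA and V it was 0.14 (95% interval -0.77 to 1.06, limma adjusted p = 0.857), an interval that includes the difference found for Hcn4. In PA all 4 Hcn3 signals were at 197 or above.

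The Hcn4 and Hcn2 results were compared within the rows and slides of the arrays. Hcn4 in SA was above LA by 2.24 on the log2 scale in the first row (1 and 3 arrays) and 1.66 in the second (3 and 1 arrays), and by 1.70, 2.15 and 2.40 within the 3 slides. SA was above V by 0.91 and 0.63 in the rows, and above PV by 0.45 and 1.38. PV was above LA by 1.79 in the first row but by 0.28 in the second, and PV minus V was 0.46 in the first row and -0.76 in the second. For Hcn2, LA minus V was -2.67 in the first row and -4.26 in the second, where the only LA array is replicate 2, and SA minus V was -1.79 and -1.44. SA was above LA by 0.87 in the first row and 2.82 in the second, and PV above LA by 0.84 and 2.76, with LA replicate 2 again the only LA array of the second row. Arrays in the first row were on average 0.19 above their region mean for Hcn2 and 0.21 for Hcn3, with -0.08 for Hcn4, and the deviations in the second row were -0.17, -0.19 and 0.07. The differences listed here kept their direction within rows except that of PV and V for Hcn4, which was not called.

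The study graded genes by a specificity measure (SPM) over LA, V and SA, which is the region's mean log2 value over the root of the summed squares of all 3 means. With a threshold of 0.613, the 95th percentile after 1 permutation of the labels, and the F-test over these 15 arrays, Hcn4 was specific for SA (SPM 0.635; limma adjusted p = 0.000211), as were 2.62% of 15809 genes. Hcn2 was specific for V (SPM 0.703; limma adjusted p = 1.00e-05), as were 5.30%. Hcn3 was specific for none, LA included (3.51% of genes), with SPM values of 0.543 in LA, 0.590 in V and 0.597 in SA. Leaving out single arrays moved the SPM of Hcn4 in SA between 0.631 and 0.638 and that of Hcn2 in V between 0.690 and 0.711.

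The balance among the genes was measured as the log2 ratio of 2 probes, each as signal + 1, within each array. The scaling of an array hardly changes this ratio except at low signals, where the added 1 counts. Since probes differ in how brightly they report a transcript, only changes of a ratio between regions can be read. The ratio of Hcn4 to Hcn2 was 3.95 ± 0.18 (SD, n = 4) in SA, 3.20 ± 1.44 (n = 4) in LA, 2.85 ± 0.67 (n = 4) in PV, 1.52 ± 0.55 (n = 7) in V and 1.23 ± 0.46 (n = 4) in PA. From V to SA it shifted 5.39-fold toward Hcn4 (log2 2.43, exact two-sided permutation p = 0.00303, 0.02 after Benjamini-Hochberg over the 33 tests of 3 ratios), and the lowest SA array, at 3.74, was above the highest ventricular array, at 2.01. LA and PV were also shifted toward Hcn4 compared with V, by 1.69 and 1.34 (exact permutation p = 0.00606, adjusted 0.0286 in both), with overlapping arrays. The spread in LA came mostly from replicate 2, at 5.11, where Hcn2 was not well above background. Without that array LA exceeded V by 1.05, the adjusted p for LA and V reached 0.0629 without LA replicate 1, 2 or 3, and the one for PV and V reached 0.0589 without PV replicate 1, 2 or 4. Neither was called with normexp (0.61 for LA, 0.83 for PV), nor LA with a pseudocount of 16 (1.20). SA exceeded PV by 1.09 with no overlap, at the smallest p that 4 against 4 arrays can give (exact permutation p = 0.0286, adjusted 0.0589), while SA and LA overlapped (log2 0.74, exact permutation p = 0.314, adjusted 0.408). Without single arrays the difference of SA and LA was 0.32 to 1.38, with adjusted p of 0.0589 to 0.691, and it was 1.38 without LA replicate 2.

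**Figure D3:**
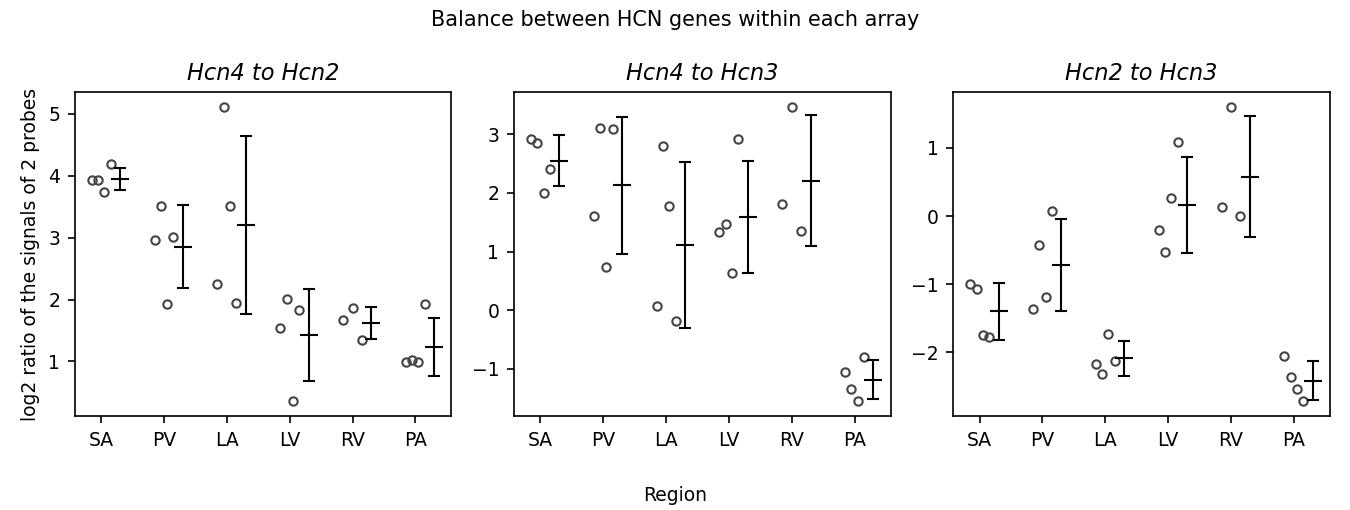
Log2 ratio of the signals of 2 probes (y axis) within each array (circles, in replicate order) by region (x axis), with mean and SD. The level of a ratio depends on the probes and only differences between regions can be read; Hcn4 to Hcn2 has its highest mean in SA, which does not overlap with LV or RV but does with LA, and Hcn4 to Hcn3 has its lowest mean in PA.

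The ratios to Hcn3 were compared in the same way. Compared with V, the ratio of Hcn2 to Hcn3 differed by -2.43 in LA, -1.74 in SA and -2.76 in PA (exact permutation p = 0.00303, adjusted 0.02 in each, no overlap). The difference between SA and V was not called without SA replicate 3 or 4 (adjusted p up to 0.0629, differences of -1.88 to -1.53 without single arrays) or with normexp (-0.95). For PV the difference from V was -1.06 with overlap (exact permutation p = 0.0545, adjusted 0.105). The ratio of Hcn4 to Hcn3 was -1.18 ± 0.33 (SD, n = 4) in PA and 1.85 ± 0.99 (n = 7) in V, a difference of -3.04 (exact permutation p = 0.00303, adjusted 0.02). SA and V differed in this ratio by 0.69 with overlap (exact permutation p = 0.209, adjusted 0.300). Of the 33 tests 7 passed an adjusted p of 0.05, and all 7 involved V, the group with the most arrays. Tests of 4 against 4 arrays cannot give an exact permutation p below 0.0286, adjusted here to 0.0589, so none was called. Several reached it without overlap, among them Hcn4 to Hcn3 in PA against SA (-3.73), PV (-3.32) and LA (-2.30).

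The genes around the HCN channels were described from lists. From the list of HCN partners, 1 gene not reported here was left out after its values were seen. Of 10 tested genes for HCN partners and regulators, 4 were higher in SA than in LA and 0 lower, where 15.3% of all genes were called (median of the list 0.34 against 0.01 for all genes). These were Irag1 (log2 1.60), an HCN-regulating protein also known as a substrate of cyclic GMP-dependent kinase in smooth muscle, the actin cross-linker Flna (1.11), the caveolar protein Cav3 (0.52) and Pex5l. Pex5l encodes TRIP8b, an accessory subunit of neuronal HCN channels, and was well above background on all 4 PV arrays, at 69.9 to 162, but on 2 of 4 LA, 1 of 4 SA and 1 of 7 ventricular arrays. In PV, 3 of the 10 (Irag1 2.21, Flna 2.06 and Pex5l) were higher than in LA and 0 lower, where 13.5% of all genes were called. Both Irag1 and Flna had their highest means in PA, and all 6 smooth muscle genes were higher in SA than in LA and higher in PV than in LA. The part of smooth muscle in the values of this list was not tested.

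Nerve markers moved with PV too. Of 9 tested genes of autonomic neurons, 7 were higher in PV than in LA and 0 lower (13.5% of all genes called), and their summed signal was 3389 to 29885 in PV, 1972 to 2872 in SA and 1013 to 1324 in LA. For Schwann cells the counts were 5 of 6, with sums of 24047 to 29458 in PV and 8461 to 14086 in LA. Between SA and LA, 2 of the 9 neuron genes and 1 of the 6 Schwann cell genes were higher in SA, as were 7.03% of all genes. Adipocyte genes (4 tested) summed to 2872 to 13775 in SA, 725 to 7756 in PV and 220 to 706 in LA. Of the 4, 1 was called as higher in SA than in LA and 3 as higher in PV than in LA, with 0 lower. Much of the SA sum came from 1 gene, Ucp1, at 2267 to 12428. PA, with the lowest mean of Hcn4, had sums of 4082 to 8441 for the neuron genes and 17440 to 20152 for the Schwann cell genes. Its adipocyte genes summed to 6048 to 13404. The part of these cells in the higher Hcn2 and Hcn4 of PV and SA was not tested. Of 5 endothelial and 4 macrophage genes, 4 and 3 were higher in V than in SA and 0 lower, where 28.1% of all genes were called. The part of endothelial cells and macrophages in the higher Hcn2 of V was not tested either.

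The cyclic AMP pathway acts on HCN channels directly, and 21 of its genes were tested, after 1 listed gene was left out with its values seen. Between SA and V, 2 were higher in SA, the muscarinic receptor Chrm2 (log2 1.04, limma adjusted p = 3.91e-06) and the G protein regulator Rgs6 (0.93), which act in vagal slowing, and 6 were lower, among them the inhibitory G protein subunit Gnai2 (-0.69) and the adenylyl cyclase Adcy9 (-1.02). These are 8 of 21 genes, where 28.1% of all genes were called, and the median of the list was -0.18 against -0.06 for all genes. Between SA and LA 1 gene was higher in SA (Gnas 0.35) and 1 lower (Gnai2 -0.46), and 19 were not called, where 15.3% of all genes were called. Chrm2 and Rgs6 were higher than in V in LA as well, by 1.14 and 1.05, whereas Hcn4 was lower there.

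Of 11 tested genes for other currents of the node, 5 were higher in SA than in V, led by the T-type calcium channel Cacna1g (log2 3.73, limma adjusted p = 1.42e-11), the acetylcholine-activated potassium channel genes Kcnj3 (2.49) and Kcnj5 (2.12), and the T-type channel Cacna1h (1.46), and 1 was lower, the L-type channel Cacna1c (-0.32), where 28.1% of all genes were called. Between LA and V, 7 were higher in LA and 2 lower, with Cacna1g at 3.54, Kcnj3 at 2.63 and Kcnj5 at 2.56 and 35.4% of all genes called, so that these genes were high in SA and LA alike. Between SA and LA 2 were higher in SA (Cacna1c 0.56, Ano1 0.66) and 2 lower (Cacna1h -2.16, Gjc1 -0.40), against 15.3% of all genes. None of the 11 was called between SA and PV, where 3.49% of all genes were called and the list had a median of 0.28 and all genes 0.04. Among 10 patterning genes of the node and chambers, 9 transcription factors and the ligand Bmp4, 2 were higher in SA than in LA, Shox2 (log2 3.50, limma adjusted p = 3.06e-07) and Tbx3 (1.20), and the ventricular factors Irx5 (-1.54) and Irx4 were lower, against 15.3% of all genes. Among 8 channels of working myocardium, 2 were higher in SA than in LA and 0 lower, and 1 was higher and 2 lower in SA than in V, where 15.3% and 28.1% of all genes were called.

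**Figure D4:**
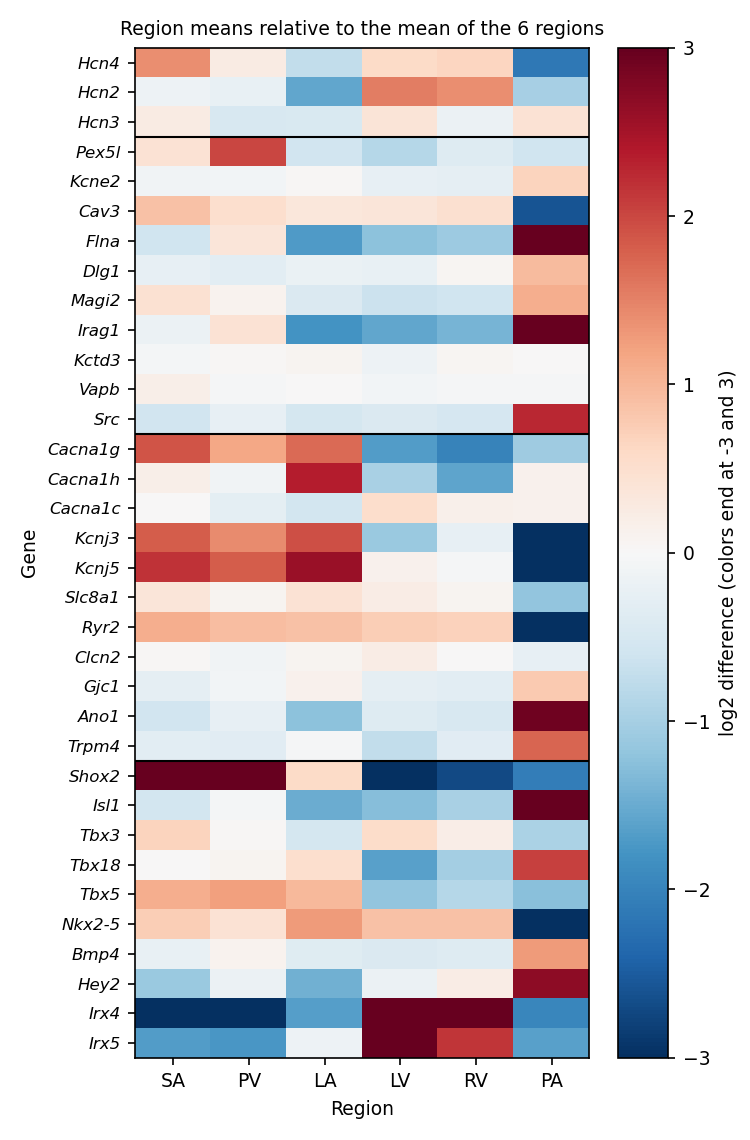
Mean log2 signal of each region minus the mean of the 6 regions (color, log2 units, ending at -3 and 3) for the 3 HCN genes, 10 HCN partners, 11 other node current genes and 10 patterning genes of the node and chambers (rows, separated by lines), by region (columns). Cacna1g, Kcnj3 and Kcnj5 are red in SA, PV and LA, while Hcn4 is red in SA and blue in LA; Irag1 and Flna are darkest in PA.

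For each HCN gene, the 5 genes with the most similar pattern over the 23 arrays were looked up among 13093 genes, as a description of arrays that share regions and scaling. For Hcn2 they were Cdv3 (Pearson r = 0.94), mrpl24 (0.93), Trim50, RT1-DMb and Tmem120a (0.92 each), all with their highest means in LV or RV, as Trim50 at 9.87 ± 0.59 in LV (SD, n = 4). For Hcn4 they were Rec114 (r = 0.93), Slc6a17 and Sypl2 (0.92 each), Banf1 and Mapre3 (0.91 each), all with their lowest means in PA, and Rec114 had its highest mean in SA, 10.99 ± 0.48 (n = 4). For Hcn3 they were Or2ak6 (r = 0.93), an odorant receptor gene, Gpx6, Hcar2, Krtap10-10l2 and Elf3 (0.90 to 0.91). These also varied within regions, as Or2ak6 with log2 SDs of 0.32 to 1.38, and in LA, LV, RV and PA, but not in SA or PV, the array with the lowest Hcn3 signal also had the region's lowest share of probes well above background (60.2%, 58.6%, 61.8% and 61.1%). The part of array quality in the pattern of Hcn3 was not tested.

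Of the 3 genes, Hcn2 has a promoter in the RefSeq-derived table used here (build GRCr8), and it is shown for that reason. The 250 bases before its start, chr7:10639458-10639707 on the minus strand, are given 5′ to 3′ with matches to the GC box letters GGGCGG, searched on both strands, in capitals.
Hcn2 promoter: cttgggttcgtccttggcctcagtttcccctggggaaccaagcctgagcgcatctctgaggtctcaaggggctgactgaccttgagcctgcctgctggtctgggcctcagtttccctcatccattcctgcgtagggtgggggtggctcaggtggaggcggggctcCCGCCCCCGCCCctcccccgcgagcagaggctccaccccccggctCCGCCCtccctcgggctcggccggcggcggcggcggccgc
It holds 3 such matches, all on the opposite strand, which begin 85, 79 and 40 bases before the start, the first of them ending where the next begins. Of 33469 rat promoters of this length, 30.5% hold at least 1. The letters TATAAA (in 12.9% of promoters) and CCAAT (in 34.0%), also searched on both strands, are not in this window, and 71.6% of its bases are G or C against a median of 51.2% over all promoters.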

How the data were processed

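RNA was labeled with Cy3 and hybridized to 1 array per sample. Per the file headers, the authors' Feature Extraction software (version 11.0.1.1) gave background-subtracted signals. The deposited normalized intensities, on a linear scale, are these signals times 1 factor per array (0.881 to 1.52) that equalizes the 90th percentile (99.6% to 99.8% of probes within 2%). RefSeq accessions named the probes. The highest probe of each gene per array was used, and log2(signal + 1) was fitted with limma 3.58.1 (R 4.3.3) in 1 model of 6 regions. Genes above 4 on at least 1 array were tested, with V as the mean of LV and RV and a threshold of 0.05 after Benjamini-Hochberg adjustment over all genes in each comparison. Ratios were tested by exact two-sided permutation over all splits of the arrays (Python 3.11.15), with V as its 7 arrays. Scripts were tested on simulated data.

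The members and lists were chosen with earlier results of these data known. Genes named are the members, 2 to 4 of each list with the lowest adjusted p in a comparison, and the 5 most alike each member. Other genes were named after their values were seen, and fold changes of listed genes were left out where a region was not well above background on most of its arrays. From the HCN partner and cyclic AMP lists 1 gene each is not reported here and was left out after its values were seen; of the other 13 HCN partners, the 10 with a named probe above the filter were tested. Same-numbered samples did not deviate together (median r -0.04, 12 of 55 pairs above 0.1). No 2 arrays of a region were identical (highest r 0.989), and no spot was saturated. The number of arrays limits the precision.

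Alternatives were scanner signals scaled to the 75th percentile, quantile normalization, normexp background correction, 1 probe per gene by mean level, a pseudocount of 16, other filters, dim arrays raised to the lowest signal well above background, only the arrays compared, blocks for replicate number, slide and row, an intensity trend, no moderation and leaving out each array.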

Additional observations from a re-analysis of the deposited data

Results flagged for a closer look

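In 36 groups (each gene's signal and each ratio in V, with 7 arrays, and in the 5 regions with 4 arrays; RV, with 3, was not examined), the highest or lowest array was compared with the range of its group by Dixon's criterion, by which chance marks about 1 in 20 groups. It marked 3. SA replicate 1 had the highest Hcn4 signal of SA, at log2 10.58. PA replicate 4 had the highest ratio of Hcn4 to Hcn2 in PA, at log2 1.93, and Hcn2 was not well above background on that array. LV replicate 3 had the lowest ratio of Hcn4 to Hcn2 in V, at log2 0.36, with the lowest Hcn4 signal (387) and the highest Hcn2 signal (301) of the ventricles.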

How the results depend on the processing

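The F-test and SPM calls of the 3 genes were the same in every alternative run, and 436 of 462 pairwise values kept direction and call when no array was left out. Values below are log2 differences, and the causes of the changes were not tested beyond what an alternative changes by construction. The small PA minus PV difference of Hcn2 was called with scanner signals at the 75th percentile (-0.81), quantile normalization (-1.004), a pseudocount of 16 (-0.61), the filter on genes well above background (-0.77), dim arrays raised (-0.62), only the arrays compared (-0.77), the slide block (-0.87) and the row block (-0.88), and PA over LA with normexp (0.38). Hcn4 in SA over PV was not called with quantile normalization (1.14), normexp (0.98), only the arrays compared (1.15) or no moderation (1.15), and Hcn2 in PA against SA was not called with no moderation (-0.83). Fits of only the arrays compared, with fewer samples, also lost SA over LA (1.40) and PV over LA (1.34) for Hcn2 and PV over LA (0.99) for Hcn4. The slide and row blocks lost Hcn4 in SA over V (0.66 and 0.73) and in PV over LA (0.88 and 0.90). Differences that were never called changed sign for Hcn2 in SA against PV (-0.017 with quantile normalization), Hcn3 in PV against LA (0.079 with normexp, 0.20 with the row block), Hcn4 in LV against RV (0.014 with normexp) and Hcn3 in PA against SA (-0.029 with the slide block). The Hcn4 to Hcn2 ratio of PV against LA turned to 0.22 with normexp and 0.10 with dim arrays raised. Ratios no longer past the threshold were Hcn4 to Hcn2 in PV (0.83) and LA (0.61) against V and Hcn2 to Hcn3 in SA against V (-0.95) with normexp, and Hcn4 to Hcn2 in LA against V with a pseudocount of 16 (1.20). The replicate block changed no call of a member; with it Hcn4 in SA over V was 0.80 (adjusted p = 0.0276).

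Leaving out single arrays changed calls or signs in these ranges. For Hcn4 they were 0.64 to 0.88 in SA over V, 0.94 to 1.36 in SA over PV, 0.77 to 1.19 in PV over LA and -0.23 to 0.25 in LV over RV. For Hcn2 they were -0.97 to -0.61 in PA over SA, -0.91 to -0.55 in PA over PV (called without LA replicate 2 or 4 or PA replicate 1), 0.096 to 0.86 in PA over LA (called without LA replicate 4) and -0.032 to 0.16 in SA over PV. For Hcn3 they were -0.17 to 0.30 in SA over V, -0.42 to 0.28 in PV over LA and -0.066 to 0.94 in LV over RV. The Hcn4 to Hcn2 ratio ranged from 1.05 to 2.11 in LA over V, 1.12 to 1.65 in PV over V, -0.77 to 0.29 in PV over LA and -0.39 to 0.16 in LV over RV. That of Hcn2 to Hcn3 ranged from -1.88 to -1.53 in SA over V (not called without SA replicate 3 or 4) and -0.73 to 0.093 in LV over RV, and that of Hcn4 to Hcn3 from -0.044 to 0.74 in PV over V, -0.050 to 0.74 in SA over PV and -1.06 to 0.016 in LV over RV.

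Normexp was run on median signals, chosen after seeing the data, because the planned mean signals were not in the files used here. Hcn2 lay near background in LA and PA, which limits the size of its differences there.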
